A study of Mus musculus with 9 samples.

Results

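Iron uptake, storage and export genes were followed through fat cell differentiation and through the knockdown of PPAR gamma. The set was 10 genes chosen by symbol: the transferrin receptor Tfrc, transferrin Trf, the metalloreductase Steap3, the divalent metal transporter Slc11a2, the transferrin receptor partner Hfe, the ferritin chains Fth1 and Ftl1, the iron exporter Slc40a1, the ferroxidase Cp and the hormone Hamp. Of these, 8 had a probe set annotated to that gene alone, among 18193 genes measured in this way. Trf and Ftl1 were present only on probe sets that the annotation also gives to other genes, and they are described apart and stay out of every count.

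Total RNA of 3T3-L1 cells, a clonal mouse fibroblast line used as a model of adipogenesis, was measured on 9 oligonucleotide arrays in 3 groups of 3. The first group was preadipocytes. For the other groups, cells were taken past confluence and given 0.5 mM of the phosphodiesterase inhibitor IBMX (3-isobutyl-1-methylxanthine) with dexamethasone at 1 µM and insulin at 10 µg/ml, then insulin alone, and were counted as mature after 8 days at 95% conversion or more. On day 14 these adipocytes were detached with trypsin and collagenase and electroporated with 2 or 3 nmol of a non-targeting control siRNA or of PPAR gamma siRNA. PPAR gamma is the nuclear receptor that drives and maintains the adipocyte state. All cells were kept in medium with 10% fetal bovine serum, which brings transferrin and iron. The labels describe no electroporation of the preadipocytes, so differentiation and transfection cannot be told apart in comparisons with that group. The submitters call the 3 arrays of a group technical replicates, and p-values here measure only the spread between those arrays.

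Iron reaches most cells bound to transferrin. The transferrin receptor carries the complex into endosomes, a STEAP reductase turns ferric into ferrous iron, and SLC11A2, also called DMT1, moves it to the cytosol. HFE binds the transferrin receptor and takes part in iron sensing. Surplus iron is held in shells of ferritin heavy and light chains, and SLC40A1, or ferroportin, is the only known exporter of iron from mammalian cells. Ceruloplasmin oxidises the exported iron, and hepcidin, the product of Hamp made mainly by the liver, removes ferroportin from the cell surface. Tfrc and ferritin messages also carry iron-responsive elements through which iron regulatory proteins set message stability and translation, which an array of RNA levels reads in part. Adipocytes use iron for their many mitochondria, for haem and for iron-sulphur proteins.

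Pparg itself checked the labels. It was 8.22 ± 0.12 (SD, n = 3) in preadipocytes, 12.79 ± 0.12 in control siRNA adipocytes and 9.59 ± 0.05 with PPAR gamma siRNA, on the log2 scale of the deposited probe set values used throughout. The mean of 8 adipocyte markers lay between 4.83 and 5.08 on the preadipocyte arrays, between 11.80 and 11.86 with control siRNA and between 9.46 and 9.62 with PPAR gamma siRNA, and 7 of the 8 rose in differentiation and fell in knockdown. The mean of 8 fibroblast or preadipocyte markers ran the other way, at 12.45 to 12.57, 9.96 to 10.26 and 11.50 to 11.97. In bulk RNA such as this, fewer cells of a type and less RNA per cell cannot be told apart, and the part of cell composition in the results was not tested. Technical readings differed between the groups in part: the Actb probe sets differed between the 3′ and 5′ end by 0.30 ± 0.06 in preadipocytes, 1.04 ± 0.22 with control siRNA and 0.79 ± 0.40 with PPAR gamma siRNA, whereas the same difference for Gapdh was -0.12 ± 0.09, -0.02 ± 0.12 and -0.02 ± 0.07. The BioB-5 spike-in, which reads the hybridisation and not the sample RNA, was at 7.38 ± 0.27, 8.60 ± 0.15 and 8.27 ± 0.29.

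Promoter sequences were looked at because the knockdown lowered the message of a DNA-binding factor, and because iron handling genes can also answer to hypoxia-inducible factors. RefSeq promoter windows on GRCm38.p6, each from 250 bases before to 50 bases after an annotated start, were at hand for 7 of the 10 genes and numbered 13. The search covered both strands for AGGTCA, the receptor half-site, and for the direct repeat of AGGTCA with 1 base between. That repeat contains the half-site and is the form PPAR gamma binds with its partner RXR. ACGTG, a form of the core of the hypoxia response element, was searched too, and other forms of that core were not. None of the 13 windows held the direct repeat, which 0.0396% of all 32851 such windows held. AGGTCA occurred in 1 of the 4 Steap3 windows, 4 times, against 16.3% of all windows with at least 1. ACGTG occurred in both Tfrc windows, which overlap at that place, against 19.6% of all windows. The Fth1, Ftl1, Hfe, Hamp and Cp windows held none of these searched motifs. The motif sites follow 5′ to 3′ along the gene's strand, with the motif in capitals (TGACCT is AGGTCA on the opposite strand), on the plus strand for Tfrc and the minus strand for Steap3. The printed stretches of sites 1 and 2 and of sites 2 and 3 of Steap3 share bases, but their motifs do not.
Tfrc site, chr16:32608883-32608910: tcggtaggtgtACGTGcggaaggaagtg
Steap3 site 1, chr1:120270388-120270415: gtgtccaccttTGACCTcggtgtgcttg
Steap3 site 2, chr1:120270367-120270394: gtgcttggggaTGACCTgaggtcaatga
Steap3 site 3, chr1:120270360-120270387: gggatgacctgAGGTCAatgaccgaccg
Steap3 site 4, chr1:120270299-120270326: gggcggggctgTGACCTgcttgtctgga

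The stretches ahead of the RefSeq gene records of Tfrc, Hfe and Cp are shown because these were the members with a promoter entry and the largest positive differences in differentiation. The Tfrc stretch (plus strand) had 64.8% G and C, the Hfe stretch (minus strand) 42.0%, and the Cp stretch (plus strand) 29.5%. The Cp stretch has only 129 bases because the RefSeq gene record begins inside the promoter window, ahead of both starts that the promoter table gives, and nothing of the record was printed. These letters describe the genes and show no binding.
Tfrc, chr16:32608646-32608895: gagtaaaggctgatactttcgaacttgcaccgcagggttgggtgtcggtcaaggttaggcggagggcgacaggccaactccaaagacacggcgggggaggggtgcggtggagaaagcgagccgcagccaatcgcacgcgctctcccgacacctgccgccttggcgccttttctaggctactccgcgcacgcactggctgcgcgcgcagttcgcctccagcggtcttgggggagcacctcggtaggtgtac
Hfe, chr13:23710855-23711104: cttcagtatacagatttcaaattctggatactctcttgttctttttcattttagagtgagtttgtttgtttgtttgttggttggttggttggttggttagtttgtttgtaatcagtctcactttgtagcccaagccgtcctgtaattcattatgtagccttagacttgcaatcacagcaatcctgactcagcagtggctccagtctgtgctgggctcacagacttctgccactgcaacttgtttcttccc
Cp, chr3:19956804-19956932: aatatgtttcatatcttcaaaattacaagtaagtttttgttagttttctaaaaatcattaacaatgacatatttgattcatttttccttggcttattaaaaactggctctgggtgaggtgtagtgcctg

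In differentiation, control siRNA adipocytes against preadipocytes, 5 of the 8 measured genes rose (Hfe, Tfrc, Cp, Slc11a2 and Slc40a1), 2 fell (Steap3 and Hamp) and Fth1 was not called. Calls needed a limma adjusted p below 0.05, and 27.1% of all genes rose and 24.7% fell by that rule. The members' median change was 0.86, beside 0.09 for all genes. With PPAR gamma siRNA against control siRNA, Slc40a1 and Cp rose, Tfrc and Slc11a2 fell, and 4 genes were not called. Among all genes 19.9% rose and 16.1% fell in that comparison, so the shares of members called lay close to the background. The median was 0.21 over the members and -0.01 over all genes. Against the preadipocytes, PPAR gamma siRNA adipocytes had 4 members higher (Hfe, Cp, Slc40a1 and Tfrc) and Steap3 lower, with 3 not called and a median of 0.66 beside 0.07, while 19.6% of all genes were higher and 16.9% lower. The comparisons share arrays, so their values are set side by side and are not separate evidence.

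**Figure D1:**
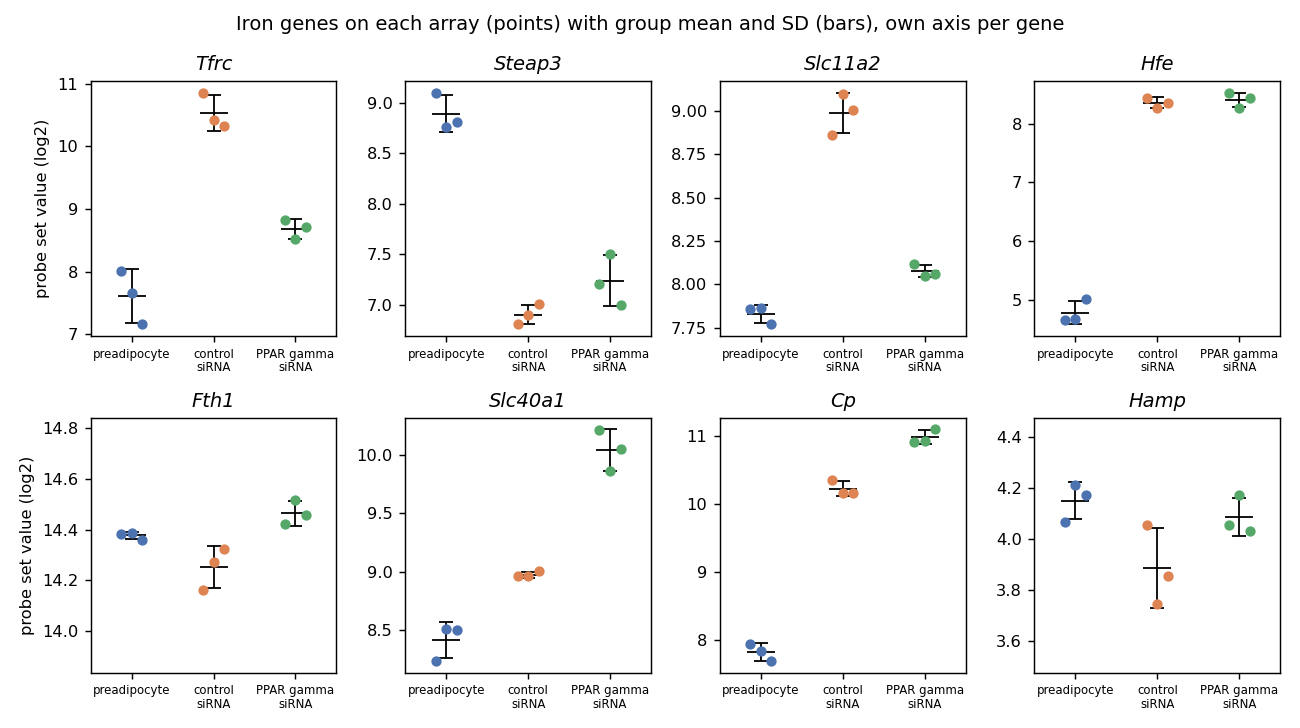
Probe set values (log2, vertical axis, a separate scale for each gene) of the 8 iron genes on every array, as points, in preadipocytes and in adipocytes with control or PPAR gamma siRNA, with group means and SDs as bars. Tfrc and Slc11a2 peaked in control siRNA adipocytes, Slc40a1 and Cp were highest with PPAR gamma siRNA, and Hfe had adipocyte means of 8.35 with control and 8.40 with PPAR gamma siRNA.

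Tfrc, the receptor that brings transferrin iron into the cell, rose in differentiation and fell with PPAR gamma siRNA. It read 8.02, 7.67 and 7.16 in preadipocytes, 10.86, 10.43 and 10.33 with control siRNA, and 8.83, 8.52 and 8.71 with PPAR gamma siRNA. No array of one group overlapped another group, and the control siRNA arrays were the highest. The rise in differentiation was 2.92 ± 0.20 (SE; 7.58-fold, adjusted p = 1.82e-07), and the fall with PPAR gamma siRNA was -1.85 ± 0.20 (3.61-fold lower, adjusted p = 2.08e-05). What remained above the preadipocytes was 1.07 ± 0.20 (2.10-fold, adjusted p = 0.00147). That remainder depended on the probe set: the other Tfrc probe sets gave 0.35 (adjusted p = 0.408) and 0.15 (adjusted p = 0.792), and the mean of all 3 gave 0.52 (adjusted p = 0.0871). The probe set that gave 0.15 had means of 4.10 in preadipocytes and 4.25 with PPAR gamma siRNA, below the array medians of 4.82 to 4.89. These levels are not shown to be above background, so its changes have no exact size and a remainder might not show there. In the other comparisons the other Tfrc probe sets moved as the first did, by 2.09 ± 0.29 and 1.97 ± 0.34 in differentiation and by -1.74 ± 0.29 and -1.82 ± 0.34 in knockdown.

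The array also carries Tfrc as one of its quality controls, with probe sets for the 3′ end, the middle and the 5′ end of the transcript, which were not tested. The 3′ probe set read 5.09 ± 0.08 in preadipocytes, 7.22 ± 0.30 with control siRNA and 5.35 ± 0.22 with PPAR gamma siRNA. The middle one read 3.34 ± 0.16, 4.79 ± 0.66 and 3.57 ± 0.19, and the 5′ one 3.45 ± 0.06, 4.98 ± 0.70 and 3.70 ± 0.16. Each of these control probe sets had its highest mean in control siRNA adipocytes. The means of the middle one lay below the array medians of 4.82 to 4.89 in every group. Those of the 5′ one did so in preadipocytes and with PPAR gamma siRNA. These levels are not shown to be above background, so the middle and the 5′ end add little to the 3′ reading. The 3′ value exceeded the 5′ value by 1.64 ± 0.07, 2.25 ± 0.45 and 1.65 ± 0.06, group by group.

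Slc11a2, the endosomal exit for iron taken up by the receptor, followed the same order of groups at a smaller size on its brightest probe set. Its arrays read 7.86, 7.86 and 7.77 in preadipocytes, 8.86, 9.09 and 9.004 with control siRNA, and 8.12, 8.05 and 8.06 with PPAR gamma siRNA. The 3 groups did not overlap. It rose by 1.155 ± 0.09 in differentiation (2.23-fold, adjusted p = 3.88e-07) and fell by -0.91 ± 0.09 in knockdown (1.88-fold lower, adjusted p = 7.27e-06). The difference of 0.25 ± 0.09 between PPAR gamma siRNA and preadipocytes missed the threshold (adjusted p = 0.051). The other 3 Slc11a2 probe sets differed in size: 0.54, 0.22 and 0.64 in differentiation, of which the second was not called (adjusted p = 0.247), and -0.22, -0.62 and -0.83 in knockdown, of which the first was not called (adjusted p = 0.188). PPAR gamma siRNA against preadipocytes gave 0.32, -0.40 and -0.19 on these 3 probe sets, none of them called. The order of those groups thus differed between probe sets. The gene has several transcripts that differ at their ends, and which of them each probe set reads was not examined.

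Steap3, the reductase best known for endosomal iron in red cell precursors, was the member that fell most. It read 9.10, 8.76 and 8.81 in preadipocytes, 6.81, 6.90 and 7.002 with control siRNA, and 7.21, 7.50 and 6.999 with PPAR gamma siRNA. Preadipocyte arrays stood above all adipocyte arrays, and the adipocyte groups overlapped. The fall in differentiation was -1.99 ± 0.13 (3.97-fold lower, adjusted p = 1.64e-07), while the knockdown difference of 0.33 ± 0.13 was not called (adjusted p = 0.0937). It was called without PPAR gamma siRNA array 3, at 0.45 (adjusted p = 0.0284). With PPAR gamma siRNA the gene was still -1.66 ± 0.13 from its preadipocyte level (3.15-fold lower, adjusted p = 2.42e-06). Both other Steap3 probe sets gave larger falls in differentiation, -2.67 ± 0.31 and -2.28 ± 0.17, and uncalled knockdown differences of 0.23 and 0.16. The 4 half-sites printed above stand before one of the 4 annotated starts of this gene.

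Hfe, the partner of the transferrin receptor, was higher in both adipocyte groups than in preadipocytes. It read 4.66, 4.67 and 5.01 in preadipocytes, close to the array medians of 4.82 to 4.89, against 8.44, 8.26 and 8.36 with control siRNA and 8.51, 8.27 and 8.43 with PPAR gamma siRNA. The adipocyte groups overlapped and stood far above the preadipocytes. The rise was 3.57 ± 0.11 with control siRNA (adjusted p = 3.08e-10) and 3.62 ± 0.11 with PPAR gamma siRNA (adjusted p = 1.06e-09). The preadipocyte level is not shown to be above background, so these sizes are no exact folds. The difference between the siRNAs was 0.05 ± 0.11 (adjusted p = 0.81), which does not show that they were equal. A second Hfe probe set was dim, at 3.35 to 3.95, and gave 0.24 ± 0.11 in differentiation (adjusted p = 0.11), so the rise rests on 1 probe set and came to 1.91 when both were averaged.

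Trf, the gene of the iron carrier of plasma, was read by a probe set that the annotation also gives to Srprb, its neighbour in the gene order. That probe set read 4.69, 4.17 and 4.33 in preadipocytes, 7.75, 7.71 and 7.74 with control siRNA, and 6.54, 6.77 and 6.38 with PPAR gamma siRNA. The groups did not overlap. It rose by 3.33 ± 0.14 in differentiation (adjusted p = 2.24e-09), fell by -1.17 ± 0.14 in knockdown (adjusted p = 3.86e-05) and stayed 2.16 ± 0.14 above preadipocytes (adjusted p = 3.09e-07). All its preadipocyte values were below the array medians and not shown to be above background, so the sizes of the rises are no exact folds. Which gene the signal came from cannot be told from the annotation.

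The ferritin chains had differences under 1 log2 unit. Fth1, the heavy chain with the ferroxidase centre, read 14.38, 14.39 and 14.36 in preadipocytes, 14.16, 14.27 and 14.32 with control siRNA, and 14.42, 14.52 and 14.46 with PPAR gamma siRNA. The groups did not overlap, but the differences of -0.12 ± 0.08 in differentiation (adjusted p = 0.233), 0.21 ± 0.08 in knockdown (adjusted p = 0.0752) and 0.09 ± 0.08 against preadipocytes (adjusted p = 0.466) were not called. These values lie near the highest on the arrays, 14.59, and whether the probes were saturated was not tested. A second Fth1 probe set gave -0.26 ± 0.08 in differentiation (adjusted p = 0.0221) and 0.23 ± 0.08 in knockdown (adjusted p = 0.0539).

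Ftl1, the light chain that helps iron to mineralise, was read by 3 probe sets shared with the pseudogene Ftl1-ps2, 1 of them also with Mir692 copies. The first read 13.16, 13.09 and 13.02 in preadipocytes, 12.47, 12.66 and 12.64 with control siRNA, and 13.21, 13.19 and 13.20 with PPAR gamma siRNA. Control siRNA arrays were the lowest and stood apart from both other groups. It fell by -0.50 ± 0.08 in differentiation (adjusted p = 0.000408) and rose by 0.61 ± 0.08 in knockdown (adjusted p = 0.000151), with 0.11 left against preadipocytes (adjusted p = 0.369). The other shared probe sets fell by -0.61 ± 0.09 and -0.41 ± 0.10 and rose by 0.43 ± 0.09 and 0.45 ± 0.10 (adjusted p from 0.000113 to 0.005).

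Slc40a1, the exporter, had the largest rise of the members with PPAR gamma siRNA when each gene was read by its brightest probe set. It read 8.24, 8.51 and 8.50 in preadipocytes, 8.96, 8.96 and 9.01 with control siRNA, and 10.21, 9.86 and 10.05 with PPAR gamma siRNA. The groups did not overlap and stood in that order. It rose by 0.56 ± 0.11 in differentiation (1.47-fold, adjusted p = 0.00128) and by 1.06 ± 0.11 in knockdown (2.09-fold, adjusted p = 1.44e-05), which made 1.62 ± 0.11 against preadipocytes (3.08-fold, adjusted p = 5.57e-07). With the Actb 3′ minus 5′ difference as a covariate, the rise in differentiation was 0.52 and no longer called (adjusted p = 0.0613). The second Slc40a1 probe set gave 0.55 ± 0.17 (adjusted p = 0.0202), 0.99 ± 0.17 (adjusted p = 0.000764) and 1.54 ± 0.17.

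Ferroportin is abundant in macrophages that recycle iron, so macrophage markers were read beside it. Of 10 such markers, 2 rose with PPAR gamma siRNA, a share close to the 19.9% of all genes: Cd14, a receptor for bacterial lipopolysaccharide, by 1.78 and Cd68, a lysosomal protein, by 1.197. The summed linear level of the list was 304 to 320 in preadipocytes, 371 to 380 with control siRNA and 620 to 735 with PPAR gamma siRNA. Such a sum weighs bright markers most, and Cd14 went from 6.68 ± 0.10 with control siRNA to 8.46 ± 0.15 with PPAR gamma siRNA. The markers other than Cd14 and Cd68 were not called in knockdown, so the sum does not speak for the list. In differentiation 3 of the 10 rose, Cd68 by 1.35, Marco by 0.60 and Adgre1 by 0.43. Ptprc, Itgam, Mrc1 and Adgre1 were below the median of their array on all 9 arrays, and Csf1r, Cd14 and Lyz2 were above it on all 9. The part of such cells in the Slc40a1 values was not tested.

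Cp, the ferroxidase that works with ferroportin, rose in each step. It read 7.95, 7.84 and 7.70 in preadipocytes, 10.35, 10.16 and 10.16 with control siRNA, and 10.91, 10.92 and 11.09 with PPAR gamma siRNA. No groups overlapped. The rise was 2.39 ± 0.10 in differentiation (5.24-fold, adjusted p = 2.61e-09), 0.75 ± 0.10 in knockdown (1.68-fold, adjusted p = 0.000106) and 3.14 ± 0.10 over both (8.83-fold, adjusted p = 1.13e-09). Cp had 8 probe sets. Against preadipocytes all 8 were higher with PPAR gamma siRNA, by 0.51 to 3.25, and in knockdown 7 of 8 rose. In differentiation 5 of 8 rose, 1 fell by -0.70 ± 0.19 (adjusted p = 0.0105), and 2 gave 0.09 (adjusted p = 0.605) and -0.32 (adjusted p = 0.139). Those that did not rise were the dimmest for Cp, with means over all arrays of 5.83, 3.37 and 5.41 in that order, beside 9.67 for the first probe set.

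Hamp, the hormone that removes ferroportin, was barely detected. Its arrays read 4.07, 4.21 and 4.17 in preadipocytes, 4.06, 3.74 and 3.86 with control siRNA, and 4.06, 4.17 and 4.03 with PPAR gamma siRNA, all below the median of their array. The fall of -0.27 ± 0.10 in differentiation just passed the threshold (adjusted p = 0.0456), and the knockdown difference of 0.20 ± 0.10 did not (adjusted p = 0.17). The differentiation call was lost in 16 of 19 settings and was not made by the second Hamp probe set, which gave -0.12 (adjusted p = 0.282). The first is of a type whose probes may also match related transcripts. Markers of hepatocytes, the main source of hepcidin, were read beside it. The mean of 8 such markers was 4.63 to 4.72 in preadipocytes, 4.93 to 4.94 with control siRNA and 4.75 to 4.89 with PPAR gamma siRNA. Alb, Cyp2e1 and Fgb were below the median on all 9 arrays, and Ttr, Apoa1 and Hnf4a were above it on all 9. Alb, Ttr and Fgb rose in differentiation, by 0.48, 0.48 and 0.29, and none of the 8 was called in knockdown.

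**Figure D2:**
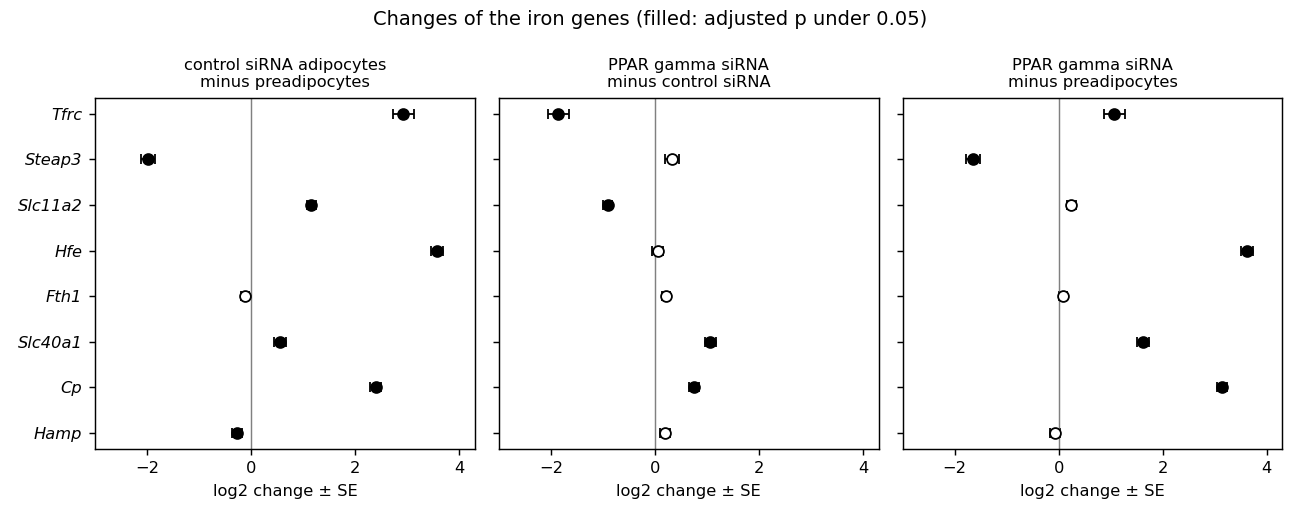
Log2 change with its SE (horizontal axis) of the 8 iron genes in differentiation, in knockdown and for PPAR gamma siRNA against preadipocytes, with filled points at an adjusted p under 0.05. Hfe and Tfrc lie farthest right in differentiation at 3.57 and 2.92, and Slc40a1 at 1.06 and Tfrc at -1.85 mark the ends in knockdown.

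**Figure D3:**
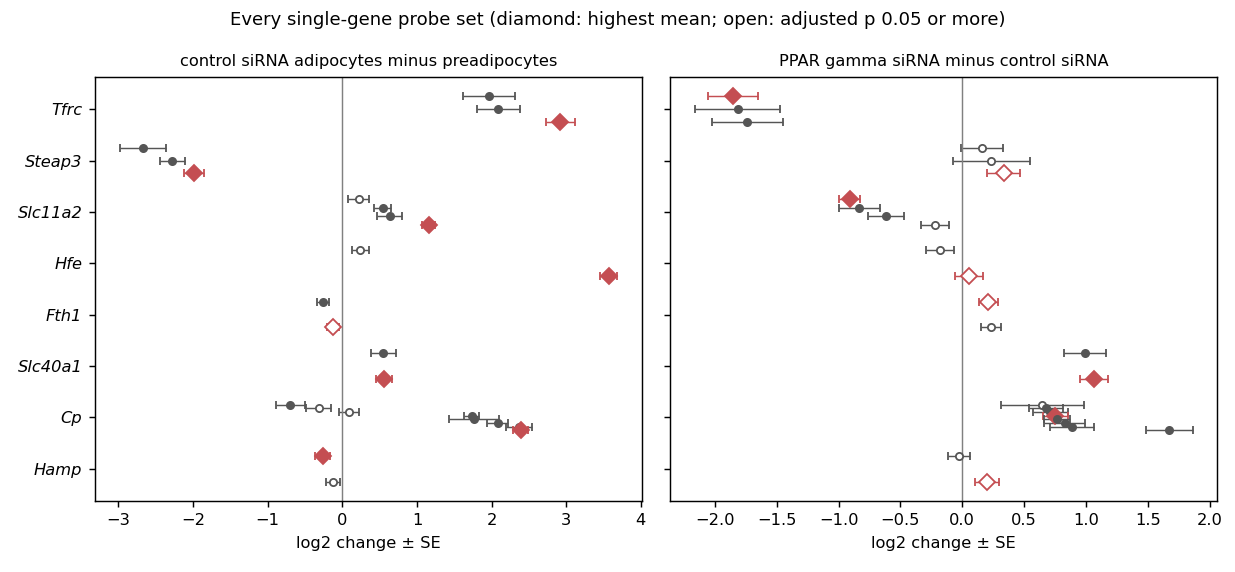
Log2 change with its SE (horizontal axis) of every probe set annotated to a single one of the 8 genes, with the probe set of highest mean as a diamond and open symbols where the adjusted p was 0.05 or more. In differentiation all Tfrc and Slc40a1 probe sets lie right of 0 and all Steap3 ones left of it, while the Cp probe sets reach from -0.70 to 2.39 and the Hfe ones from 0.24 to 3.57.

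The genes most like a member over the 9 arrays were found by the root mean square distance of log2 values, each gene centred on its own mean, among 18192 others. They are named for likeness alone, for the 6 members whose group means span at least 1 log2 unit. Tfrc was closest to Gramd1b at 0.174, then Larp1b at 0.205 and Kank1 at 0.207, and Gramd1b went from 6.45 over 9.34 to 7.46. Slc11a2 was closest to Cox5a, a subunit of cytochrome c oxidase, at 0.04997, then Zbtb5 at 0.0550 and Arhgap29 at 0.0662, with Cox5a at 11.98, 13.18 and 12.18. These were the smallest distances, but Slc11a2 also had the smallest span of group means of the 6 members, at 1.155. The distance is not scaled to the span, so its size does not rank likeness between members. Slc40a1 was closest to Scarb2, a lysosomal membrane protein, at 0.142, then Abcc1 at 0.165 and Hspb6 at 0.179. Cp was closest to Srebf1, a regulator of lipid synthesis, at 0.172, which read 8.18, 10.43 and 11.02 in the 3 groups, then Pla2g2e at 0.258 and Stom at 0.265. Hfe was closest to Parm1 at 0.210, Abca1, the cholesterol exporter, at 0.212 and Acox2 at 0.218. Steap3 was closest to Glipr2 at 0.103, Plekho2 at 0.152 and Il33 at 0.157.

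Other genes of iron handling were described from 7 lists. Of 21 measured genes of iron and transferrin uptake besides the members, 6 rose and 6 fell in differentiation, and 7 rose and 4 fell in knockdown, with medians of 0.04 and 0.07. Over all genes 27.1% rose and 24.7% fell in differentiation and 19.9% rose and 16.1% fell in knockdown, and the uptake counts in differentiation were close to those shares. The counts of the other lists are to be read against the same shares. Hp, haptoglobin, which binds free haemoglobin and is secreted by adipocytes, rose by 8.35 ± 0.14 from 4.69 to 13.03 (adjusted p = 3.39e-12) and fell by -4.37 ± 0.14 to 8.66 (adjusted p = 2.25e-09). Its preadipocyte mean was below the array medians, so the first size is no exact fold. The metalloreductases Steap4 and Steap2 moved in opposite directions. Steap4 rose by 3.30 ± 0.12 and fell by -1.63 ± 0.12 with the siRNA, whereas Steap2 fell by -4.06 ± 0.09 and rose by 2.00 ± 0.09, each with an adjusted p of 8.03e-07 or less. Scara5, a receptor for ferritin, read 12.06 ± 0.06 in preadipocytes, 9.73 ± 0.12 with control siRNA and 11.83 ± 0.15 with PPAR gamma siRNA, a fall of -2.33 ± 0.10 and a rise of 2.10 ± 0.10.

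Among 11 other genes of iron storage, handling and export, 3 rose and 4 fell in differentiation and 3 rose and 3 fell in knockdown (medians -0.05 and 0.13). Ncoa4, the receptor that delivers ferritin to lysosomes to free its iron, rose by 1.42 ± 0.09 (adjusted p = 9.89e-08) and fell by -1.08 ± 0.09 (adjusted p = 2.68e-06). Nedd4l, a ubiquitin ligase, rose by 1.202 ± 0.09 and fell by -0.75 ± 0.09. App, the amyloid precursor protein, fell by -1.56 ± 0.08 and rose by 1.14 ± 0.08, and Rnf217, a ubiquitin ligase of ferroportin, fell by -0.88 ± 0.12 and rose by 0.94 ± 0.12.

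In the list of cellular iron sensing, 5 of 13 genes rose and 3 fell in differentiation, and 3 rose and 3 fell in knockdown (medians 0.03 and -0.08). The genes of both iron regulatory proteins, which bind the iron-responsive elements of Tfrc and ferritin messages, were in it and moved in opposite directions. Aco1, the gene of the first, which serves as cytosolic aconitase when iron is ample, read 9.95 ± 0.04 in preadipocytes, 11.95 ± 0.17 with control siRNA and 10.73 ± 0.13 with PPAR gamma siRNA. It rose by 2.01 ± 0.10 (adjusted p = 1.6e-08) and fell by -1.22 ± 0.10 (adjusted p = 2.92e-06). Ireb2, the gene of the second, read 8.71 ± 0.05, 7.83 ± 0.11 and 8.54 ± 0.12, a fall of -0.88 ± 0.09 (adjusted p = 8.31e-06) and a rise of 0.71 ± 0.09 (adjusted p = 9.87e-05).

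Genes of haem and of mitochondrial iron mostly rose in differentiation. Of 23 genes of haem synthesis, breakdown and transport, 14 rose and 3 fell in differentiation, and 4 rose and 10 fell in knockdown, with medians of 0.72 and -0.31. Alas1, the first and rate-limiting enzyme of haem synthesis in most cells, rose by 2.81 ± 0.08 from 8.39 to 11.20 (adjusted p = 1.07e-10) and fell by -1.53 ± 0.08 to 9.67 (adjusted p = 5.4e-08). Alad, the next enzyme, rose by 2.30 ± 0.09 and fell by -1.33 ± 0.09, and Cox10, which makes haem for cytochrome c oxidase, rose by 1.56 ± 0.13 and fell by -1.44 ± 0.13. Against this run, the haem and porphyrin exporter Abcg2 fell by -0.95 ± 0.09 and rose by 0.93 ± 0.09, the haem exporter Flvcr1 fell by -0.82 ± 0.12 and gave 0.28 in knockdown (adjusted p = 0.126), and the lysosomal haem transporter Slc48a1 gave -0.01 in differentiation (adjusted p = 0.947) and rose by 1.09 ± 0.12 in knockdown.

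Of 19 genes of mitochondrial iron import and iron-sulphur cluster assembly, 15 rose and 3 fell in differentiation, and 3 rose and 12 fell in knockdown, with medians of 1.05 and -0.58. Iba57, which acts late in cluster assembly, rose by 2.20 ± 0.11 and fell by -1.60 ± 0.11. Cisd1, or mitoNEET, an outer membrane iron-sulphur protein known as a binder of the PPAR gamma drug pioglitazone, rose by 2.11 ± 0.09 (adjusted p = 2.7e-09) and fell by -1.77 ± 0.09 (adjusted p = 4.46e-08). The iron importer Slc25a37, or mitoferrin, fell by -1.38 ± 0.13 and rose by 0.95 ± 0.13, and the assembly scaffold Iscu fell by -0.51 ± 0.08 and rose by 1.33 ± 0.08. Cisd2 fell by -0.52 ± 0.14 in differentiation (adjusted p = 0.0117) and gave -0.30 in knockdown (adjusted p = 0.168). These lists hold many mitochondrial genes. Most genes called in them had the directions of the 7 adipocyte markers that rose and fell, and a link was not tested.

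**Figure D4:**
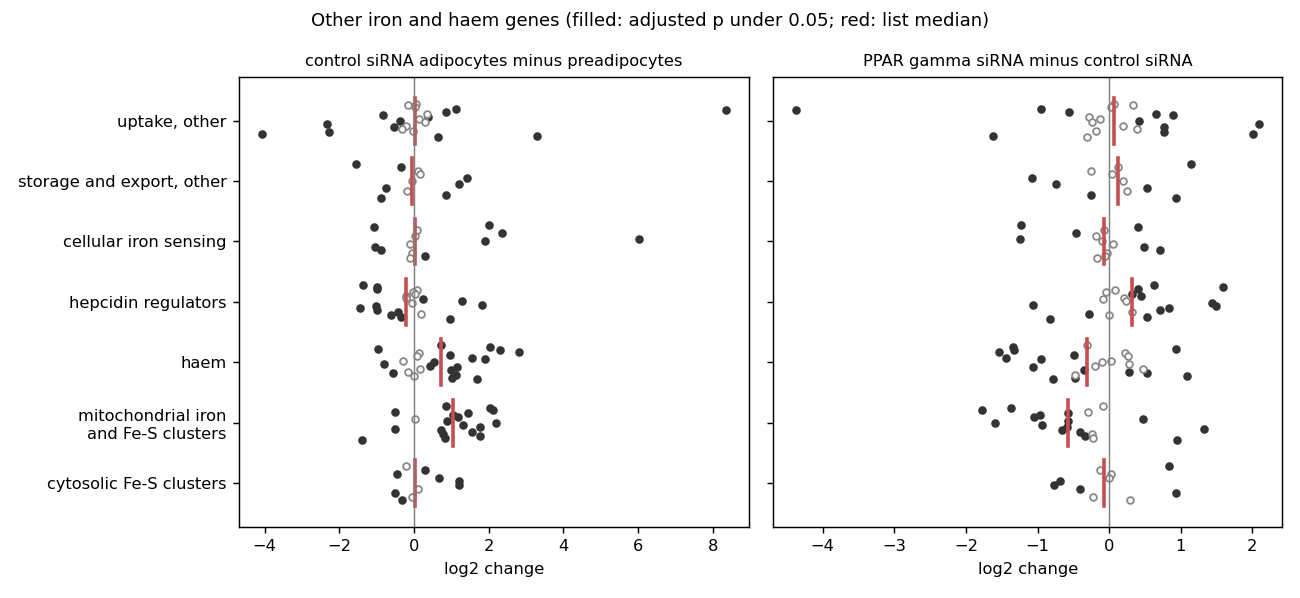
Log2 change (horizontal axis) of each measured gene of the 7 lists of other iron and haem genes in differentiation and in knockdown, with filled points at an adjusted p under 0.05 and the list median as a red bar. The haem and mitochondrial lists have medians of 0.72 and 1.05 in differentiation and of -0.31 and -0.58 in knockdown, and the uptake, storage and sensing lists have points on both sides of 0 and medians near it.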

How the data were processed

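The authors deposited 1 log2 value per probe set and array. That the scale is log2 follows from the values (2.41 to 14.59), and with array medians of 4.82 to 4.89 they were taken as normalised between arrays. The submitters' processing notes name MAS5, RMA and affy 1.16.0 without a role. Its background step is not stated in the sources used here.

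No further scaling was applied. A platform annotation of 2016 named the genes: of 45101 probe sets, 64 were controls, 34945 had 1 symbol, 932 several and 9160 none. A gene was read by its brightest single-symbol probe set, by the mean of all arrays. The comparisons came from 1 linear model of the 9 arrays in limma 3.58.1 (R 4.3.3) with moderated variances, two-sided, with p adjusted by Benjamini and Hochberg over 45037 probe sets and called under 0.05. The fit was tested on simulated data. Folds are 2 to the power of the log2 change.

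Members, lists and markers were chosen with earlier results of these data known. Named were all members, Pparg, up to 2 rising and 2 falling genes of each list and comparison whose arrays did not overlap between groups, and the 3 genes most like a member. Egln2, Epas1 and the cell type markers were named outside this rule. The array number limits precision. The labels do not say which arrays had 2 and which 3 nmol siRNA. Of replicate numbers, no pairing was found. Alternatives were renewed quantile normalisation, median centring, omission of dim probe sets or of types x and s, a fit of 2 groups, an intensity trend, the mean of all probe sets, a test against 1.2-fold, a replicate block, an Actb covariate, omission of the adipocyte arrays of highest Actb difference, and omission of each array.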

Additional observations from a re-analysis of the deposited data

How the results depend on the processing

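Over 20 settings, the differentiation and knockdown changes of Tfrc, Slc11a2 and Cp, the knockdown change of Slc40a1 and the differentiation changes of Hfe and Steap3 kept direction and call. The count of members lower in differentiation was 2, and 1 with arrays centred on their medians, dim probe sets left out, only the 2 groups compared, a test against 1.2-fold, the replicate block or the Actb covariate, and 1 to 2 without each array in turn. Hamp was the member lost. It also lost its call with the intensity trend, the average of all probe sets and types x and s left out, where Fth1 was called lower in its place. No pairing by replicate number was seen: deviations of same-numbered arrays correlated at -0.188 to 0.173, and those of differently numbered arrays at -0.223 to 0.289. With 3 arrays a group these correlations cannot exclude a pairing. The replicate block changed no member's call except that of Hamp.

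Signs turned in values that were not called, besides 1 Cp probe set. Averaging all probe sets turned Hfe in knockdown to -0.063, which was -0.18 on its second probe set and -0.0037 to 0.12 without each array in turn. Slc11a2 against preadipocytes was -0.0076 on that average and -0.40 and -0.19 on other probe sets. With types x and s left out, Hamp in knockdown was -0.025 and Fth1 against preadipocytes was -0.026. Cp in differentiation was -0.32 and -0.70 on 2 of its probe sets. With the mean of all probe sets, the differentiation changes of Hfe, Cp and Slc11a2 were 1.91, 1.18 and 0.64, still called. Called in some settings alone were Fth1 in differentiation and in knockdown (3 of 20 each), Slc11a2 against preadipocytes (6 of 20), Steap3 in knockdown (1 of 20) and Hamp in knockdown (1 of 19, without control siRNA array 1, 0.29). The causes were not tested.

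In a test against 1.2-fold, genes higher in knockdown numbered 1 for sensing (3 otherwise), 5 for hepcidin regulators (10) and 2 for haem (4), and cytosolic iron-sulphur genes lower in differentiation 1 (3). The haem count was also 2 without the adipocyte arrays of highest Actb difference. The 3 arrays of a group and dim signals limit what could be called for Hamp and the second Hfe probe set.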

Other observations

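The regulators of hepcidin were measured although Hamp itself was barely detected. Of 20 genes, 4 rose and 9 fell in differentiation, and 10 rose and 3 fell in knockdown, with medians of -0.21 and 0.32, beside 27.1% and 24.7% of all genes in differentiation and 19.9% and 16.1% in knockdown. Receptors and messengers of bone morphogenetic protein signalling were among those that fell and then rose: Acvr1, a type I receptor, by -1.36 ± 0.13 and 0.62 ± 0.13, Acvr2a, a type II receptor, by -0.99 ± 0.09 and 1.59 ± 0.09, and Smad1 by -1.43 ± 0.11 and 0.83 ± 0.11. Neo1, the hemojuvelin partner neogenin, fell by -1.02 ± 0.13 and rose by 1.49 ± 0.13. Il6ra, the interleukin 6 receptor, rose by 1.81 ± 0.15 and fell by -1.06 ± 0.15, and Tmprss6, the protease that restrains hepcidin, rose by 0.96 ± 0.11 and fell by -0.83 ± 0.11. Id1, a target of this signalling, rose by 1.29 ± 0.17 and gave 0.24 in knockdown (adjusted p = 0.348).

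The 3 iron-dependent prolyl hydroxylases that act as oxygen sensors differed in their changes. Egln3 read 6.02 ± 0.30 in preadipocytes, 12.04 ± 0.10 with control siRNA and 10.81 ± 0.33 with PPAR gamma siRNA, a rise of 6.03 ± 0.17 and a fall of -1.24 ± 0.17. Egln1 rose by 2.35 ± 0.15 and fell by -0.46 ± 0.15, and Egln2 gave 0.03 (adjusted p = 0.792) and -0.19 (adjusted p = 0.162). Hif1a, whose protein they hydroxylate, fell by -1.04 ± 0.08 and rose by 0.48 ± 0.08. Epas1, the gene of a second hypoxia-inducible factor in that list, went the other way in differentiation. It rose by 1.89 (adjusted p = 1.43e-07) and gave -0.10 in knockdown (adjusted p = 0.643). Bach1, a haem-binding repressor, fell by -1.07 ± 0.08 and rose by 0.41 ± 0.08. In the cytosolic iron-sulphur list, 4 of 10 genes rose and 3 fell in differentiation, and 2 rose and 3 fell in knockdown (medians 0.01 and -0.07). Ciao3 and Ciapin1 rose by 1.22 ± 0.08 and 1.21 ± 0.14 and fell by -0.69 ± 0.08 and -0.78 ± 0.14. Mms19, which hands clusters to DNA repair enzymes, fell by -0.51 ± 0.08 and rose by 0.94 ± 0.08, Ciao2a fell by -0.45 ± 0.10 and gave 0.03 in knockdown (adjusted p = 0.897), and Bola2 gave -0.21 in differentiation (adjusted p = 0.213) and rose by 0.84 ± 0.13.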
